A study of Homo sapiens with 6 samples.

Results

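The mitochondrial respiratory chain passes electrons from NADH and succinate to oxygen and uses the energy released to pump protons across the inner membrane. Complex I oxidises NADH, complex II oxidises succinate and is also an enzyme of the citric acid cycle, complex III passes electrons from coenzyme Q to cytochrome c, and complex IV reduces oxygen. ATP synthase then lets protons flow back and makes ATP. Most subunits are encoded in the nucleus, a few are encoded in mitochondrial DNA, and the complexes are built with the help of assembly factors that are not part of the finished enzyme. Normal prostate epithelium is known to secrete citrate, and malignant prostate cells to oxidise it.

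The nuclear-encoded genes of this machinery were taken by their symbols from a table of raw read counts: those beginning with NDUF, UQCR, ATP5 or SDHA to SDHD, those with COX followed by a digit, and CYC1 and CYCS. This gave 103 of the 12703 genes in the table. Of 111 symbols listed for the classes used here, 8 were not analysed here (NDUFA3, NDUFA6, COX4I2, COX6A2, COX6B2, COX7A1, COX8C and ATP5MGL). A further 5 genes matched by symbol only and were left out, namely the pseudogenes SDHAP1, SDHAP3, SDHAP4 and ATP5F1EP2 and the noncoding COX10-DT. All 103 genes passed edgeR's filter on low counts, and the lowest had 203 counts over the 6 libraries.

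The samples were PC3 cells, an established human prostate cancer line derived from a bone metastasis. Both groups were stably transduced with lentiviral particles, 3 lines with particles carrying GCNT1 and 3 lines with negative-control particles, and each line gave 1 stranded mRNA library. GCNT1 is a glycosyltransferase that adds the core 2 branch to O-glycans of proteins. The promoter driving the transgene, and whether the 3 lines of a group came from separate transductions or clones, are not given in the sources used here, so the p values measure the spread between these libraries. The labels number the libraries as biological replicates 1 to 3 of each group, and the comparison asks which genes differ when GCNT1 is overexpressed.

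Total counts were between 12125672 and 12755888 in control libraries and between 11392213 and 13825704 in GCNT1 overexpressing libraries, and 3 counts, the floor used here, corresponded to 0.217 to 0.263 CPM, the counts scaled by library size. The groups were compared with edgeR's quasi-likelihood test, and its p values were adjusted by the method of Benjamini and Hochberg (BH) over all genes. GCNT1 itself had 9, 13 and 8 counts in controls and 13, 16 and 35 with overexpression, with a log2 fold change of 0.98 (SE 0.37, edgeR BH-adjusted p = 0.0362). The edgeR adjusted p of GCNT1 was 0.269 without overexpressing replicate 3 (log2 fold change 0.49), 0.0920 without control replicate 1 and 0.0944 without control replicate 3, and DESeq2 gave an adjusted p of 0.0821. Overexpressing replicate 1 and control replicate 2 had 13 counts each, or 1.12 and 1.04 CPM, so that the row is a weak check of the labels. Whether reads of the vector's GCNT1 transcript were counted in this row is not given in the sources used here, and the fold change is therefore no measure of the transgene. The libraries are called overexpressing as they were labelled. Of 6 markers of the epithelial PC3 line 1 was higher and 3 were lower at the adjusted p, and 2 of the lower ones had an absolute log2 fold change of at least 0.58. The keratin KRT19 went from 369 to 230 CPM on average (log2 fold change -0.68), and E-cadherin, CDH1, from 2.88 to 4.45 CPM in controls to 0.992 to 1.30 CPM with overexpression (log2 fold change -1.71). KRT18 was lower at -0.18 and VIM higher at 0.30, and KRT8 at -0.14 and EPCAM at 0.09 did not pass. Of 6 fibroblast markers COL1A1 and COL3A1 were analysed, and their summed level was 126 to 178 CPM in controls and 43.0 to 46.7 CPM with overexpression. CD68 was the analysed marker among 6 haematopoietic ones, at 80.0 to 94.4 CPM. KDR and PECAM1 were those among 4 endothelial ones, summing to 148 to 166 CPM in controls and 47.7 to 63.4 CPM with overexpression, and they went opposite ways. KDR, which made up nearly all of this sum, fell from 154 to 53.1 CPM on average (log2 fold change -1.53), and PECAM1 rose from 1.77 to 4.43 CPM (log2 fold change 1.31). The part of these marker differences in the results was not tested. In bulk RNA, fewer cells of a kind and less RNA per cell cannot be told apart.

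The respiratory chain as a whole did not move in 1 direction between the groups. Genes were called when the adjusted p was under 0.05 and the absolute log2 fold change was at least 0.58. By this rule 4 of the 103 genes were higher in GCNT1 overexpressing cells (NDUFA4L2, COX19, COX7B2 and ATP5F1C) and 4 were lower (SDHA, NDUFS6, ATP5F1D and NDUFS4). These 8 genes are 7.77% of the members, where 19.3% of all genes tested were called, 8.28% higher and 11.1% lower. At the adjusted p alone 66 members passed (64.1%), 38 higher and 28 lower, where 57.6% of all genes passed, 28.3% higher and 29.3% lower. The 3 libraries of each group did not overlap in 71 members (68.9%), 39 higher and 32 lower, where this held for 62.5% of all genes, 30.9% higher and 31.6% lower. The median log2 fold change was 0.025 over the members and 0.00095 over all genes, and the median of the absolute values was 0.24 and 0.26. In total the members took 10762 ± 352 CPM in controls and 10566 ± 489 CPM with overexpression (SD, n = 3 each), and 95 of the 103 genes had an absolute log2 fold change under 0.58.

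**Figure D1:**
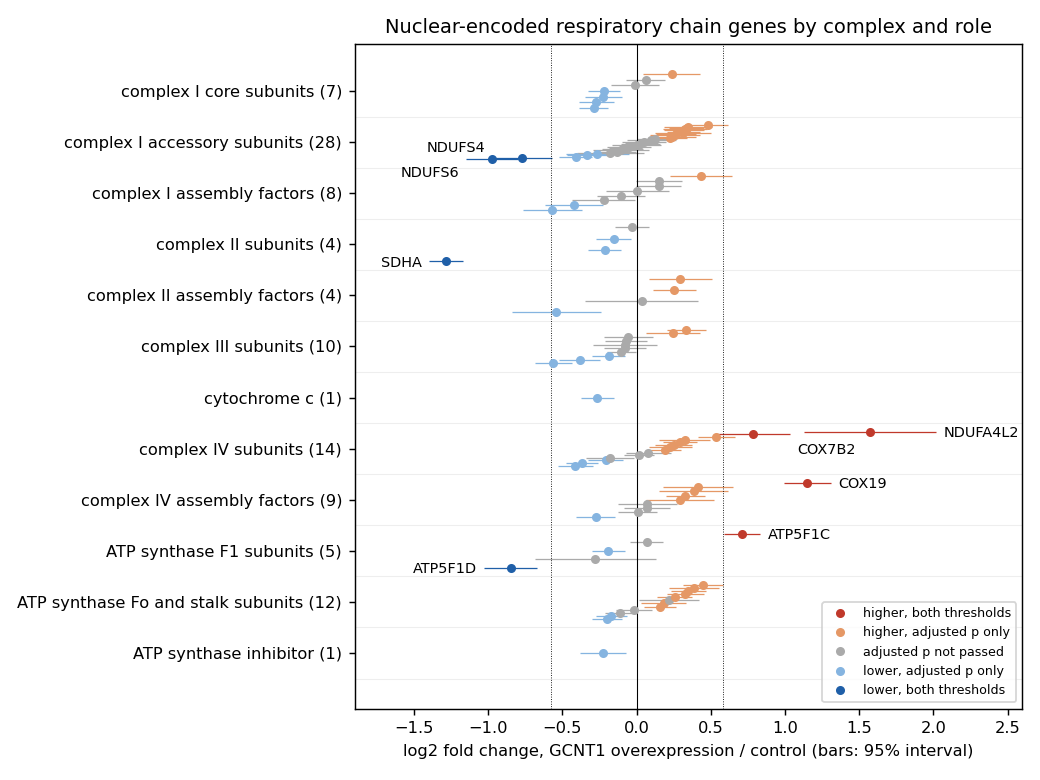
Each point is the log2 fold change (GCNT1 overexpression over control) of 1 of the 103 genes, with its 95% interval, in rows by complex and role with the number of genes in brackets; dotted lines mark the fold change threshold of 0.58. The 8 named genes lie past both thresholds, SDHA at -1.28 farthest to the left and NDUFA4L2 at 1.57 farthest to the right, and the other 95 genes lie between the dotted lines.

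Complex II held the largest fall among the members. SDHA, the catalytic flavoprotein that oxidises succinate, lies on chromosome 5 of hg38 from 218320 to 268746. Its TMM-normalized level was 399, 416 and 433 CPM in control libraries 1 to 3 and 181, 164 and 168 CPM in overexpressing libraries 1 to 3. Every overexpressing library was below the lowest control by a wide margin, and SDHA fell 2.44-fold (log2 fold change -1.28, SE 0.05, edgeR BH-adjusted p = 3.88e-10). Set against its 50 nearest analysed genes, whose median was -1.07, SDHA was at -0.21, under the fold change threshold. The other subunits moved little. SDHB, the iron-sulfur subunit, had a log2 fold change of -0.22 and SDHC, a membrane anchor, -0.16, both past the adjusted p alone, and SDHD, the other anchor, had -0.03 and did not pass. Scaled to transcript length, SDHA stood at 1.41 ± 0.0716 times the level of SDHB in controls and at 0.674 ± 0.0211 times with overexpression (SD, n = 3 each), without overlap between the groups. The 4 subunits summed to 699 CPM in controls and to 428 CPM with overexpression, a ratio of 0.613. Reads of SDHA can be confused with those of its pseudogenes. Of these SDHAP3 had a log2 fold change of -0.73, SDHAP4 of -0.02 and SDHAP1 of 0.35. SDHA was at 416 CPM on average in controls and 171 CPM with overexpression, far above these pseudogenes. SDHAP3 was at 3.66 and 2.18 CPM, SDHAP1 at 4.08 and 5.17 CPM, and SDHAP4 at 10.7 to 13.6 CPM over the 6 libraries. SDHAP3 also lies on chromosome 5, from 1571957 to 1594531, and the median of its 50 nearest analysed genes was -1.08. How many reads were confused between these genes was not tested.

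The assembly factors of complex II went both ways. SDHAF3, which protects the iron-sulfur subunit during assembly, was at 8.26, 9.88 and 9.90 CPM in controls and at 6.22, 7.57 and 5.46 CPM with overexpression, with a log2 fold change of -0.54 (SE 0.14). SDHAF1, which takes part in the same step, had 0.30, and SDHAF2, which helps attach the flavin to SDHA, had 0.25. SDHAF4, which binds the flavinated SDHA, had 0.03 and did not pass the adjusted p, on 43 to 70 counts per library. The adjusted p of SDHC and SDHAF1 passed the threshold or missed it depending on the library left out and on the test, as given further on.

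The sequences upstream of SDHA and NDUFS6, which fell, and of COX19 and NDUFA4L2, which rose most, are shown so that the promoters of the genes with the largest changes can be read. They are RefSeq sequence of GRCh38.p14, limited to the bases before the start of the gene that lie outside annotated exons and written 5′ to 3′ on the strand of the gene. Capitals mark matches to the motif of nuclear respiratory factor 1 (NRF1), searched as GCGC, any 2 bases and GCGC, which finds the same sites on both strands.
SDHA, chr5:218154-218297, plus strand: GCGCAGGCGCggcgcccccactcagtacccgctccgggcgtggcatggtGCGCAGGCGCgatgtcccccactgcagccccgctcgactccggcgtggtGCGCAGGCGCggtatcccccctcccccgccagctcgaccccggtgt
NDUFS6, chr5:1801157-1801333, plus strand: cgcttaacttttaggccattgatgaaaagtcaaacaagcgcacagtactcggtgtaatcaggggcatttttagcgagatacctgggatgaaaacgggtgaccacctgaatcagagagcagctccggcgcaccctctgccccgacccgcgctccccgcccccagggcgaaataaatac
COX19, chr7:975550-975799, minus strand: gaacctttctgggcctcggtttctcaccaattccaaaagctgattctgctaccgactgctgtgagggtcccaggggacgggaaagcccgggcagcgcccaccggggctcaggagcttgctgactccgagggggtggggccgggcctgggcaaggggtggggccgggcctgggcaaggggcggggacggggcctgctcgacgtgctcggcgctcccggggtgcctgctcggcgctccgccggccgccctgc
NDUFA4L2, chr12:57240763-57241012, minus strand: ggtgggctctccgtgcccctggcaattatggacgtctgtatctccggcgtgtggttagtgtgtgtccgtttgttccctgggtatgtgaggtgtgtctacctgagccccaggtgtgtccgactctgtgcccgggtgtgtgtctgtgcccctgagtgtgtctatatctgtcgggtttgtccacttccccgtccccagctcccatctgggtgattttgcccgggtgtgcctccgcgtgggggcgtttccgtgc
The SDHA stretch holds 3 matches in a repeated unit, and the 250 bases before its start hold 4. The stretches of the other 3 genes hold none. A promoter was matched for 87 of the 103 genes, and in the 250 bases before the start 19 of them (21.8%) held the NRF1 motif, as did 14.4% of the 9791 promoters of all protein-coding genes tested. CCGGAAG on either strand, the core bound by ETS factors such as GABP, stood in 25.3% and 16.3% respectively. AAGATGGCG on either strand, a form of the YY1 motif, stood in 1.15% and 1.12%, or in 9.20% and 4.19% when the 50 bases after the start were added. The median log2 fold change was 0.07 over the members with the NRF1 motif in the 250 bases and 0.01 over those without it. These matches are descriptions of letters, and binding was not measured.

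Complex I core subunits, which carry the flavin, the iron-sulfur clusters and the quinone site, were mostly lower. Of 7 members 0 were called, 4 were lower and 1 higher at the adjusted p, and the median log2 fold change was -0.22. The lower ones included NDUFV2 at -0.29, NDUFS1 at -0.27 and NDUFV1 at -0.23. NDUFV1 binds the flavin that takes electrons from NADH, and NDUFV2 and NDUFS1 carry iron-sulfur clusters after it. NDUFV2, the largest fall of the class, was at 216, 213 and 216 CPM in controls and at 182, 174 and 172 CPM with overexpression, so that a small difference exceeded the spread between libraries. NDUFS7, which carries the last iron-sulfur cluster, had 0.24 with groups that overlapped. Its edgeR BH-adjusted p of 0.0344 also depended on single libraries and on the test.

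The accessory subunits of complex I surround the core and stabilise it. Of 28 analysed, 2 were called and both were lower, 11 were higher and 5 lower at the adjusted p, and the median log2 fold change was 0.04. NDUFS6 (chromosome 5, from 1801407 to 1816048), which binds zinc and sits beside the NADH-oxidising module, was at 81.8, 90.2 and 97.9 CPM in controls and at 50.03, 41.4 and 46.0 CPM with overexpression. The groups were far apart, with a log2 fold change of -0.98 (SE 0.08, edgeR BH-adjusted p = 3.73e-07). Relative to the median of its 50 nearest genes, -1.08, the value of NDUFS6 was 0.11, so that the call ended and the direction turned. NDUFS4 (chromosome 5, from 53560639 to 53683338), a subunit whose loss is known to destabilise the same module, was at 26.5, 23.9 and 25.6 CPM in controls and at 16.2, 13.0 and 15.4 CPM with overexpression. Its log2 fold change was -0.77 (SE 0.09, edgeR BH-adjusted p = 1.25e-05), again without overlap, and -0.30 relative to its 50 nearest genes, under the fold change threshold. Scaled to transcript length, NDUFS6 stood at 1.47 ± 0.0589 times the level of NDUFV1 in controls and at 0.877 ± 0.0307 times with overexpression.

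Other accessory subunits changed less. NDUFA12, which takes the place of the assembly factor NDUFAF2 late in assembly, had the largest rise, from 54.1, 56.5 and 60.3 CPM in controls to 84.4, 77.2 and 77.1 CPM (log2 fold change 0.48, SE 0.06). The other rises ran from 0.23 in NDUFB5 to 0.35 in NDUFV3, and included NDUFA8, NDUFB2, NDUFA9, NDUFA1, NDUFC2, NDUFB3, NDUFA7 and NDUFC1. Besides NDUFS6 and NDUFS4, NDUFA10 had a log2 fold change of -0.41, NDUFB10 of -0.33 and NDUFB1 of -0.26. The other 12 accessory subunits did not pass the adjusted p, with log2 fold changes from -0.18 in NDUFA2 to 0.13 in NDUFB4. The summed level of the accessory subunits overlapped between the groups, at 2100 ± 80.5 CPM in controls and 2134 ± 87.7 CPM with overexpression, while that of the core subunits was 837 ± 20.3 and 739 ± 22.3 CPM without overlap (SD, n = 3 each).

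Among the 8 complex I assembly factors 0 were called. NDUFAF7, a methyltransferase needed for complex I assembly, had a log2 fold change of -0.57, just under the fold change threshold, at 16.4, 18.4 and 16.3 CPM in controls and 11.5, 11.1 and 11.8 CPM with overexpression. NDUFAF3 had -0.42 and NDUFAF4, its partner in early assembly, 0.43, so that these partners passed the adjusted p in opposite directions. NDUFAF4 rose from 10.2, 9.32 and 10.7 CPM to 13.8, 13.8 and 13.2 CPM. NDUFAF1, NDUFAF2, NDUFAF5, NDUFAF6 and NDUFAF8 did not pass, with values from -0.22 in NDUFAF5 to 0.15 in NDUFAF1. The gene PRKD3, which overlaps NDUFAF7 on the opposite strand, had a log2 fold change of -0.76. Whether the counting used strand is not given in the sources used here, and the libraries were stranded.

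Complex III showed 0 called genes among 10, with 3 lower and 2 higher at the adjusted p and a median log2 fold change of -0.08. In sum its subunits were at 1460 ± 53.8 CPM in controls and 1300 ± 75.4 CPM with overexpression (SD, n = 3 each), without overlap. UQCRC2, a core protein of the complex, was the largest fall at 130, 131 and 130 CPM in controls against 95.1, 86.5 and 83.8 CPM with overexpression (log2 fold change -0.56, SE 0.06, edgeR BH-adjusted p = 2.62e-06). CYC1, the cytochrome c1 subunit that hands electrons to cytochrome c, had -0.38, and UQCRH, the hinge protein beside it, had -0.19. UQCRFS1, the Rieske iron-sulfur protein, rose by 0.33 on the log2 scale, and UQCR11, a small supernumerary subunit, by 0.25. Cytochrome c itself, CYCS, was at 123, 131 and 130 CPM in controls and at 110, 103 and 107 CPM with overexpression, a log2 fold change of -0.26 (edgeR BH-adjusted p = 0.000786). Thus the transcripts of UQCRC2, CYC1, UQCRH and CYCS were lower and those of UQCRFS1 and UQCR11 were higher. CYCS has 42 annotated pseudogenes named after it, and UQCRHL is an intronless copy of UQCRH, so that reads of these genes may be shared. UQCRHL had -0.08 and did not pass the adjusted p.

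Complex IV held 2 called genes among its 14 analysed subunits, NDUFA4L2 and COX7B2, and both are less widely expressed relatives of a common subunit. At the adjusted p 8 subunits were higher and 3 lower, and the median log2 fold change was 0.21. NDUFA4L2 (chromosome 12, from 57234903 to 57240762) is a relative of NDUFA4 known to be induced by low oxygen. It had 14, 19 and 18 counts in the control libraries and 51, 49 and 63 in the overexpressing ones, or 1.11, 1.53 and 1.52 CPM and 4.41, 3.57 and 4.47 CPM. All overexpressing libraries were above all controls, and the log2 fold change was 1.57 (SE 0.21, 95% interval 1.13 to 2.02, edgeR BH-adjusted p = 2.63e-05). NDUFA4, a subunit first assigned to complex I, also rose, from 120, 113 and 123 CPM to 185, 164 and 168 CPM (log2 fold change 0.54). Scaled to transcript length, NDUFA4L2 stood at 0.0253 times the level of NDUFA4 in controls and at 0.0519 times with overexpression, so that NDUFA4 was by far the more abundant transcript in both groups. NDUFA4L2 overlaps SHMT2, a serine hydroxymethyltransferase gene on the opposite strand, which was at 203 and 302 CPM (log2 fold change 0.57). Reads from the 2 strands cannot be told apart if strand was not used.

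COX7B2 (chromosome 4, from 46734827 to 46909245), a relative of COX7B, was at 8.10, 7.23 and 9.64 CPM in controls and at 15.03, 14.3 and 13.7 CPM with overexpression. The groups did not overlap, and the log2 fold change was 0.79 (SE 0.11, edgeR BH-adjusted p = 6.06e-05). COX7B had 0.19, and per transcript length COX7B2 stood at 0.196 ± 0.0180 times its level in controls and at 0.297 ± 0.0128 times with overexpression (SD, n = 3 each). COX7A2L, a relative of COX7A2 that takes part in joining complexes III and IV, had a log2 fold change of -0.41 and COX7A2 one of -0.21. Their ratio per length fell from 0.184 to 0.160 without overlap between libraries. COX7C, at -0.37, was the other lower subunit.

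Other subunits of complex IV rose by smaller amounts or did not pass the adjusted p. COX4I1, the regulatory subunit that contacts the catalytic core, was at 340, 348 and 365 CPM in controls and 459, 406 and 424 CPM with overexpression (log2 fold change 0.29, SE 0.05). COX6A1 had 0.33, COX6B1 0.25 and COX5A 0.23, and COX8A, COX6C and COX5B did not pass the adjusted p at 0.08, 0.02 and -0.18. EMC8 overlaps COX4I1 on the opposite strand and had a log2 fold change of 0.47. In sum the complex IV subunits were at 2059 ± 72.8 CPM in controls and 2207 ± 121 CPM with overexpression (SD, n = 3 each), and the groups overlapped.

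COX19 was the called gene among the 9 assembly factors of complex IV. It encodes a small cysteine-rich protein of the intermembrane space that takes part in copper delivery, and lies on chromosome 7 from 964852 to 975549. It was at 16.2, 17.8 and 16.2 CPM in controls and at 38.4, 36.2 and 37.3 CPM with overexpression. The spread within each group was small against this 2.22-fold rise (log2 fold change 1.15, SE 0.07, edgeR BH-adjusted p = 3.49e-08). COX16, COX14, COX11 and COX10 also rose at the adjusted p, by 0.41, 0.38, 0.33 and 0.29 on the log2 scale. COX11 helps place copper in the catalytic centre, and COX10 makes heme O. COX15, which converts heme O to heme A, the copper chaperone COX17 and the insertase COX18 did not pass, at 0.01, 0.07 and 0.07. COX20, a chaperone of the mitochondrially encoded subunit MT-CO2, was lower at -0.28. The 9 genes summed to 313 ± 9.39 CPM in controls and 359 ± 6.44 CPM with overexpression, without overlap.

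**Figure D2:**
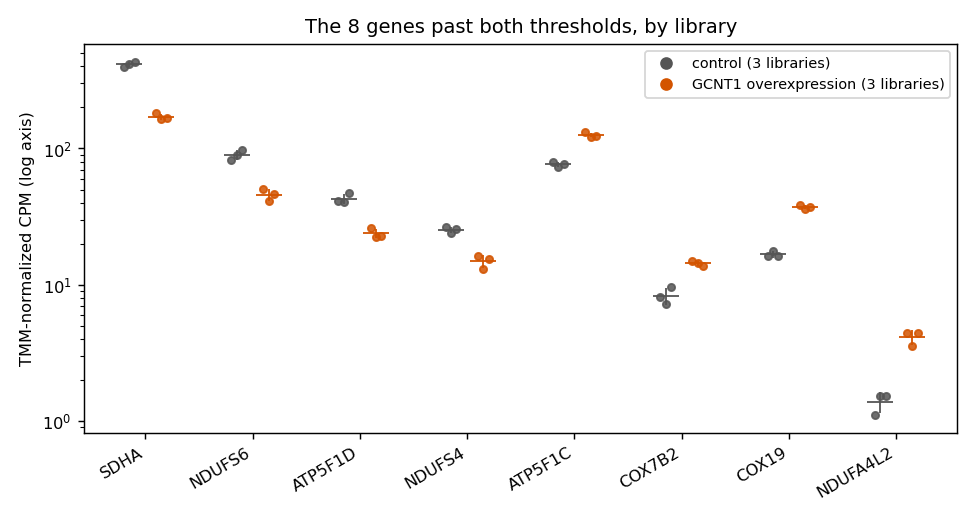
TMM-normalized CPM on a log axis for the 8 called genes in the 3 control libraries (grey) and the 3 GCNT1 overexpressing libraries (orange), with a dash at each mean and a bar of 1 SD. In each gene the 2 groups are apart, SDHA being the most abundant in CPM (399 to 433 in controls, 164 to 181 with overexpression) and NDUFA4L2 the least (1.11 to 1.53 and 3.57 to 4.47).

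ATP synthase had its called genes in the rotor. The gamma subunit ATP5F1C, the central shaft that turns inside the catalytic head, lies on chromosome 10 from 7788177 to 7807801 and was at 79.6, 73.2 and 76.7 CPM in controls and at 131, 121 and 124 CPM with overexpression. Its log2 fold change was 0.71 (SE 0.06, edgeR BH-adjusted p = 2.47e-07), and -0.05 relative to the median of its 50 nearest genes, 0.76, which ended the call and turned the direction. The delta subunit ATP5F1D, which joins the shaft to the membrane ring, lies on chromosome 19 from 1241751 to 1244825 and went the other way. It was at 41.3, 40.3 and 46.8 CPM in controls and at 25.9, 22.6 and 22.9 CPM with overexpression (log2 fold change -0.85, SE 0.08, edgeR BH-adjusted p = 1.64e-06). Both genes were without overlap between the groups. ATP5F1B, the catalytic beta subunit, had the highest level of all members in CPM, at 902 in controls and 945 with overexpression, and a log2 fold change of 0.07 that did not pass. Against it per length, ATP5F1C went from 0.136 to 0.212 and ATP5F1D from 0.0838 to 0.0445. The alpha subunit ATP5F1A was lower at -0.19, and ATP5F1E, the epsilon subunit, was counted 30 to 43 times per library and did not pass at -0.28.

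The membrane part and the stalk of ATP synthase were mostly higher, with 7 of 12 genes higher and 2 lower at the adjusted p, 0 called and a median log2 fold change of 0.20. ATP5PF, coupling factor 6 of the peripheral stalk, was at 80.6, 73.2 and 81.9 CPM in controls and at 113, 102 and 107 CPM with overexpression (log2 fold change 0.45, SE 0.06). GABPA, a transcription factor gene that overlaps ATP5PF on the opposite strand, had 0.42. The 3 genes for the same c-ring protein differed, with log2 fold changes of 0.39 for ATP5MC1, 0.18 for ATP5MC2 and -0.02 for ATP5MC3, and the per-length ratio of ATP5MC1 to ATP5MC3 went from 2.18 ± 0.182 to 2.89 ± 0.0131 (SD, n = 3 each). This ratio rests on canonical lengths of 646 bases for ATP5MC1 and 2587 for ATP5MC3. In CPM ATP5MC1 was the lower of the 2, at 118 against 216 in controls and 154 against 213 with overexpression. The mature proteins of these genes are the same, so that the ratio concerns the transcripts. ATP5ME, ATP5MK, ATP5MJ and ATP5PO were higher by 0.16 to 0.35 on the log2 scale, and ATP5PD and ATP5MG were lower at -0.20 and -0.17. ATP5IF1, the inhibitor that blocks the enzyme from running backwards, had a log2 fold change of -0.23, from 43.5, 50.8 and 50.1 CPM to 41.8, 41.6 and 40.1 CPM (edgeR BH-adjusted p = 0.0154). This p missed the threshold without control replicate 2, control replicate 3 or overexpressing replicate 3, and with library size alone.

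**Figure D3:**
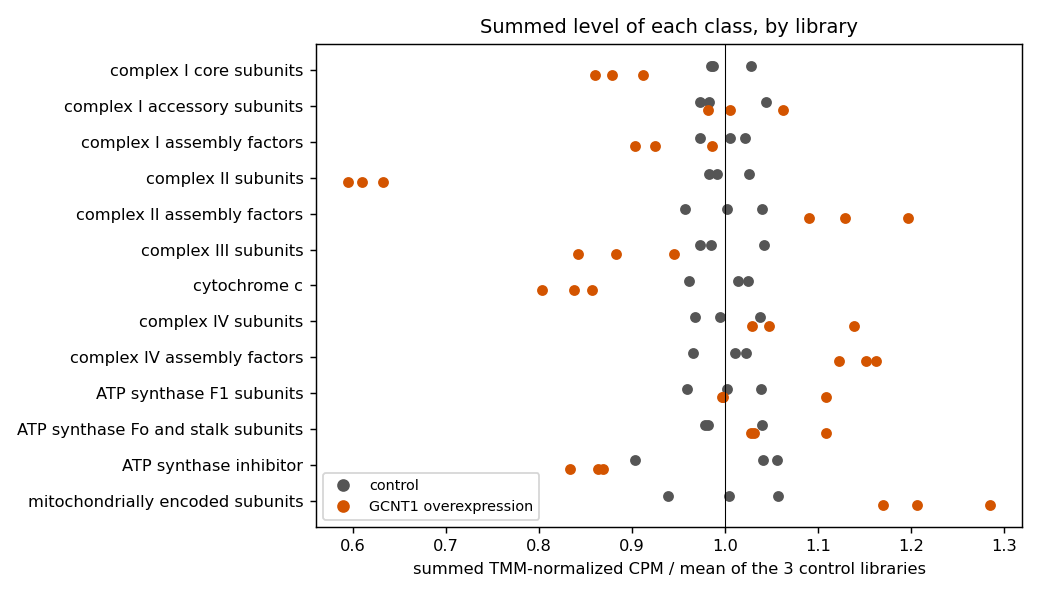
Summed TMM-normalized CPM of each class in each library, divided by the mean of the 3 control libraries (line at 1), with controls in grey and GCNT1 overexpressing libraries in orange. Complex II subunits lie at about 0.6 in the 3 overexpressing libraries, with SDHA alone going from 416 to 171 CPM on average. Complex I core subunits, complex III subunits, cytochrome c and the ATP synthase inhibitor also lie below every control. Complex II and complex IV assembly factors and the mitochondrially encoded subunits lie above every control, and the other classes overlap.

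The mitochondrially encoded subunits, which are built into the same complexes, rose more often than they fell. Of 13 genes 3 were called (23.1%), all higher, where 19.3% of all genes were called, 8.28% higher. At the adjusted p 9 were higher and 1 lower (76.9% past it), where 57.6% of all genes passed, 28.3% higher and 29.3% lower. MT-CYB of complex III was the largest rise at 0.91, followed by MT-ND3 at 0.88 and MT-ND2 at 0.74 of complex I, and MT-ND1 was the lower one at -0.19. These transcripts took 2.48% to 2.73% of the counts in controls and 3.11% to 3.44% with overexpression. Their summed level relative to controls was 1.22, and that of the nuclear-encoded members 0.982.

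Other genes of the pathway, taken from lists written by role, were mostly under the fold change threshold. Of 39 assembly factors named outside the symbol rule 0 were called, 7 were higher and 8 lower at the adjusted p. Among those past the adjusted p, DMAC1, a factor of complex I assembly, had the largest rise at 0.50. FOXRED1, another such factor, had the largest fall at -0.55. Of 13 genes of coenzyme Q synthesis 0 were called, 4 were higher and 3 lower, with COQ10A at 0.43 and COQ9 at -0.39. Among 7 other enzymes that feed electrons to coenzyme Q 1 was called. ETFA, the alpha subunit of the electron transfer flavoprotein that serves fatty acid oxidation, had 461, 505 and 430 counts in the control libraries and 1178, 1347 and 1376 in the overexpressing ones (log2 fold change 1.39, SE 0.06, edgeR BH-adjusted p = 8.55e-10). Its partner ETFB had -0.12 and did not pass, and GPD2, the mitochondrial glycerol phosphate dehydrogenase, had -0.22. Of 6 carriers 3 were higher, led by the phosphate carrier SLC25A3 at 0.35. Of 13 nuclear regulators and mitochondrial transcription factors 7 were higher and 2 lower at the adjusted p, and the called ones were PPARGC1B, a coactivator of mitochondrial genes, at 0.68 and TFB1M, a methyltransferase of mitochondrial ribosomal RNA, at -0.80. NRF1, whose motif was searched above, had -0.15 and did not pass.

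Many members had the direction of the genes around them on the chromosome. Of the 8 called genes SDHA, NDUFS6 and ATP5F1C stood close to the local medians given above, and that of NDUFS4 was -0.47. ATP5F1D, COX19, COX7B2 and NDUFA4L2 had local medians of 0.08, 0.42, 0.05 and 0.30 and remained at -0.93, 0.73, 0.74 and 1.28 relative to them. NDUFA10 and COX7A2L on chromosome 2, with gene values of -0.41 each, had local medians of -0.61 and -0.38. No test was run against the local medians.

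Over the 103 members the Pearson correlation between the log2 fold change of a gene and its local median was 0.73 (Spearman 0.71), and over all 12643 genes placed it was 0.24 (Spearman 0.45). These are descriptions across genes, which are not independent replicates, and neighbouring genes share most of their local median and all genes share the same 6 libraries. The 2 sets were not matched for level or spread. The log2 fold changes ran from -1.28 to 1.57 over the members and from -12.8 to 9.01 over all genes tested. The sign was the same in 83 of 103 members (80.6%) and in 68.3% of all genes. The median absolute log2 fold change of the members was 0.24 and became 0.15 relative to the local medians. Local medians were under -0.2 for 15 members and over 0.2 for 22. By chromosome, 4 of 7 members on chromosome 5 were lower and 0 higher at the adjusted p, where 57.1% of all 578 genes placed there were lower and 11.4% higher. On chromosome 1 this held for 6 of 9 and 0, beside 37.5% lower and 15.2% higher of all genes there. On chromosome 12 the count was 6 of 7 higher and 0 lower, beside 53.4% and 10.2%, and on chromosome 21 it was 3 of 3 higher, beside 62.2%. Other chromosomes held members of both directions. Chromosome 19 had 6 higher and 1 lower of 10, beside 25.4% and 21.97% of all genes there. Members on chromosome 19 were thus higher more often than the genes placed there. Chromosome 2 had 1 and 4 of 7, beside 19.9% and 42.1%. Chromosome 7 had 3 and 2 of 7, beside 34.9% and 22.4%. Chromosome 11 had 2 and 2 of 8, beside 25.4% and 32.2%. The remaining chromosomes, like chromosome 21, held 5 members or fewer and are not described here. The copy number of these chromosomes was not measured here.

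**Figure D4:**
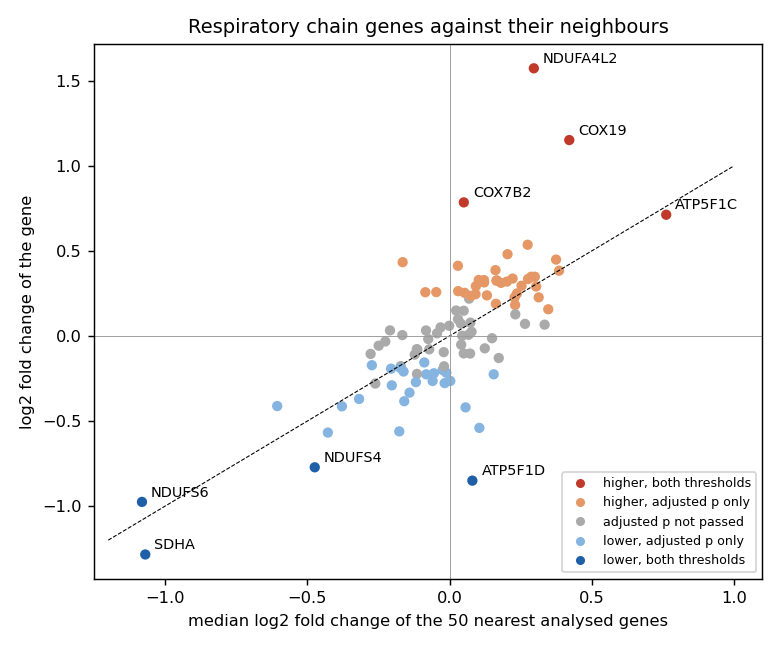
Each point is 1 of the 103 genes, with the median log2 fold change of its 50 nearest analysed genes on the x axis and its own log2 fold change on the y axis; the dashed line marks equal values. SDHA, NDUFS6 and ATP5F1C lie near the dashed line at -1.07, -1.08 and 0.76 on the x axis, while NDUFA4L2, COX19, COX7B2 and ATP5F1D lie away from it.

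Libraries of the same group did not measure these genes alike. Control replicate 3 was the highest of its group in 60 of the 103 members and overexpressing replicate 1 in 78, with a median deviation from the group mean of 0.05 and 0.06 on the log2 scale. The same libraries deviated by 0.06 and 0.07 over the 836 genes of the table with transcripts under 1000 bases, and members have short transcripts, with a median of 916 bases where that of all genes was 3333. The part of this in single members was not tested. Without overexpressing replicate 1 the members at the adjusted p were 36 higher and 32 lower, and without control replicate 3 they were 39 higher and 26 lower, with both directions present in each case.

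Of the 66 members past the adjusted p, 55 stayed past it whichever library was left out, and 11 did not. Without control replicate 1, ATP5MC2, NDUFB1, NDUFS7, SDHAF1 and SDHC missed the threshold, with edgeR BH-adjusted p from 0.0521 to 0.154. Without control replicate 2, ATP5IF1, ATP5MC2, ATP5PO, COX10, NDUFA7, NDUFB1, NDUFC1, NDUFS7 and UQCR11 missed it (0.0611 to 0.154). Leaving out control replicate 3 had this effect on ATP5IF1, SDHAF1 and SDHC (0.0510 to 0.0571). Leaving out overexpressing replicate 1 had it on ATP5MC2, NDUFS7 and UQCR11 (0.0651 to 0.0881). Without overexpressing replicate 2, NDUFB1, NDUFC1, SDHAF1 and SDHC missed it (0.0507 to 0.148). Without overexpressing replicate 3, ATP5IF1, COX10, NDUFB1, NDUFS7, SDHAF1 and SDHC missed it (0.0550 to 0.129). With all libraries, DESeq2 put COX10, NDUFB1, NDUFS7, SDHAF1 and SDHC above the threshold (adjusted p from 0.0648 to 0.108), and scaling by library size alone did so for ATP5IF1, ATP5MG, NDUFB1 and SDHC (edgeR BH-adjusted p from 0.0505 to 0.147). The 8 called genes were past both thresholds in each of these fits. Among the mitochondrially encoded genes MT-ND1 missed the adjusted p without control replicate 2 or 3 or overexpressing replicate 2 (0.0538, 0.104 and 0.0711), and of the other named genes COQ10A missed it without control replicate 2 (0.0974).

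Counts of some members carry further uncertainty from shared sequence. GENCODE names pseudogenes of 55 members, 43 members overlap an annotated gene on the opposite strand and 27 overlap one on the same strand. COX19 shares its span with ADAP1 on the same strand, which was at 1.46 CPM in controls and 1.66 CPM with overexpression and did not pass the adjusted p. COX20 overlaps HNRNPU on the opposite strand, which had a log2 fold change of -0.19.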

How the data were processed

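Per the paper's methods, mRNA of the 6 lines was made into stranded libraries and read from 1 end for 75 bases. Reads were trimmed by Cutadapt, aligned to hg38 by HISAT2 and assigned to genes by featureCounts in Galaxy, and the submitters' processing notes also name FastQC and limma. The authors deposited the raw counts, 1 column per library and 1 row per Entrez gene, neither normalized nor pooled. The annotation, the strand setting of the counting and any filter on low counts are not given in the sources used here.

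Symbols were taken from RefSeq by Entrez identifier (12661 of 12703 genes matched), and positions, overlaps and the length of the canonical transcript from GENCODE 44. NDUFA4 and NDUFA4L2 are the names used by GENCODE. In edgeR 4.0.16 (R 4.3.3) filterByExpr kept every gene, libraries were scaled by TMM, and the groups were compared with the quasi-likelihood test without a block and with Benjamini-Hochberg (BH) adjustment over all 12703 genes. Genes were called at an adjusted p under 0.05 and an absolute log2 fold change of at least 0.58, the thresholds of the study. Levels are CPM on TMM-scaled library sizes, and levels compared between genes were divided by the length of the canonical transcript. Which transcript of a gene was present was not measured, so the size of such a ratio depends on that length. Libraries of the same group differed by more than sampling noise (chi-square per degree of freedom 1.65 to 5.65), so each counted as 1 sample. The floor of 3 counts covers counting error only. The genes named were those called, the largest rise and fall in each class and list at the adjusted p, the isoform groups, cytochrome c, GCNT1 and the members of lowest and highest level. Other members are named to complete a class, after their values were seen, and some results are not reported here. The members and lists were chosen with earlier results of these data known. The alternatives were limma-voom (limma 3.58.1), DESeq2 1.42.0, RLE factors, library size alone, other filters, the replicate block, each library left out, and fold changes relative to the 50 nearest genes. Local medians, motif matches and figures were made in Python 3.11.15. The tests were first run on simulated counts with known changes.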

Additional observations from a re-analysis of the deposited data

How the results depend on the processing

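The 8 called genes were past both thresholds under every alternative test, scaling, filter and left-out library, with log2 fold changes for SDHA from -1.33 to -1.23 and for NDUFA4L2 from 1.44 to 1.68. With library size alone the median log2 fold change of the members was 0.082 in place of 0.025, that of all genes 0.059, the members at the adjusted p were 43 higher and 24 lower in place of 38 and 28 (64.2% higher in place of 57.6%), NDUFA4 was called too, and ATP5MC3 was at 0.040 in place of -0.018. Leaving out each library gave 4 members called higher and 4 to 6 called lower, 31 to 39 and 25 to 32 at the adjusted p, and medians from 0.00 to 0.07, and NDUFAF7, SDHAF3 and UQCRC2 passed the fold change threshold in some of these fits. In them ATP5MC3 ranged from -0.074 to 0.018 and COX8A from -0.015 to 0.137. Relative to the 50 nearest genes 4 members were past the thresholds as higher (COX19, COX7B2, NDUFA4L2, NDUFAF4) and 2 as lower (ATP5F1D, SDHAF3), since ATP5F1C, SDHA, NDUFS6 and NDUFS4 no longer reached the fold change, and the value was 0.11 for NDUFS6, -0.049 for ATP5F1C, -0.014 for COX4I1, -0.048 for ATP5MC2, 0.057 for ATP5MC3 and -0.27 for ATP5F1B. The p values there are those of the main comparison. No local median was taken for mitochondrially encoded genes. By DESeq2 35 members were higher and 26 lower at the adjusted p. With the replicate block 36 members were higher and 27 lower at the adjusted p with 4 called in each direction. ATP5MC2, ATP5PO and SDHC missed the adjusted p in that fit (edgeR BH-adjusted p from 0.0516 to 0.0851). The correlation of same-numbered libraries was -0.354, 0.0226 and -0.163. With 3 libraries a group, these values cannot show whether same-numbered lines were handled together. Of the 6 libraries 1 (control replicate 2) correlated best with its own number. With 3 libraries a group an exact permutation test of 1 gene cannot go below p = 0.1.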
